A study of Caenorhabditis elegans with 6 samples.

Results

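miR-71-5p, named cel-miR-71-5p on the array, is the mature miRNA cut from the 5p arm of the nematode mir-71 precursor, and its level is described here in 2 strains of Caenorhabditis elegans under 3 exposures. The member was the worm probe named for miR-71 without the star strand in the newer of the raw spot tables, and 1 of 154 worm probes met that rule. The probe was printed as 4 spots on each of 6 one-colour arrays, so the series holds 24 spot readings of it. Each array was hybridised with 1 µg of total RNA labelled with the dye Hy3, and there was 1 array for each strain and exposure. Containers of solid nematode growth medium were loaded with about 100000 dauer larvae, the stress-resistant arrested stage, and kept at 23 °C for 16.5 days, and worms were frozen 7 h after the end.

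The wild type was N2. The other strain was labelled ced-1(n1995), a mutation in the gene for a receptor that cells use to engulf dying neighbours. Titles call that strain LS292 and the strain field calls it MT4930. In the field, LS292 usually denotes worms that lack functional dystrophin (dys-1), so which mutation lies behind the mutant values cannot be told from the labels, and the strain is called here the mutant labelled ced-1. The static slot in flight received 1.92 mGy of space radiation with gravity peaks up to 0.01 g. The centrifuge slot in flight received 2.27 mGy at 1 g, and the ground containers stood in a static slot and were started 2 days later. The stage of the worms at collection is not given in the labels, and whole worms were used, so fewer cells that make a miRNA and less of it per cell cannot be told apart.

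A miRNA guides an Argonaute protein to partly matching sites in messenger RNAs, which lowers their translation and stability. miR-71 is conserved across many invertebrates. In Caenorhabditis elegans it is known to lengthen life and raise stress resistance together with insulin signalling and the transcription factor DAF-16, and starved larvae that arrest after hatching survive poorly without it. Known targets in worms include age-1, which encodes the kinase of the insulin pathway, unc-31, which acts in neuropeptide release, and tir-1, which acts in a choice of fate between sister olfactory neurons. In the RefSeq gene table for WBcel235, mir-71 lies on chromosome I inside the span of the protein-coding gene ppfr-1 and overlaps the non-coding RNA gene F16A11.6. The nearest annotated miRNA gene is mir-2, which lies inside the same span.

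The sample labels of the deposited tables disagree, and every comparison of miR-71-5p rests on which of them is used. Sample descriptions, both raw tables and the expression table share the same sample names, and these names were used throughout. The series value table holds the authors' normalized intensity too, but each of its 6 columns equals the expression table's column in the same place and carries the label of another sample (relative tolerance 0.0001). It lists miR-71-5p at 29.1 under N2 static flight, 36.6 under mutant static flight, 4.28 under N2 centrifuge flight and 0.0118 under mutant centrifuge flight, and leaves both ground samples blank. The expression table gives these values to mutant static flight, mutant centrifuge flight, mutant ground and N2 static flight, in that order. Under the labels of the series value table, the strain difference would be -1.11 on the log2 scale in place of 5.59. Static flight minus ground would be 6.58 in place of 1.33, in the limma model described below.

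The number of arrays limits the precision of every value. The mutant arrays were brighter as a whole: the 240 control spots named Hy3 had a median of 2894 to 3130 on the mutant arrays and 602 to 683 on the N2 arrays. The 476 spike-control spots, which were dim on all arrays, served as the measure of non-specific signal. Their 95th percentile, called the control limit here, was 97.0, 75.3 and 150 for the mutant in static flight, centrifuge flight and ground and 14, 20 and 13.3 for N2 in the same order. Of 154 worm probes, 36 to 90 lay above it on the mutant arrays and 27 to 31 on the N2 arrays.

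In the mutant, miR-71-5p was bright in flight and dimmer on the ground. Background-subtracted intensity of the 4 spots was 4322, 3684, 3067 and 3091 in static flight. In centrifuge flight the spots read 10134, 10921, 10862 and 10117. On the ground they read 612, 660, 1455 and 1062. The spots of the 3 arrays did not overlap, with the centrifuge array highest and the ground array lowest, and all 12 spots lay above the control limit. The share of other worm probes with spots apart is not given here. The centrifuge array was brighter for other probes too. Among 51 worm probes above the control limit on both flight arrays, the median log2 ratio of static over centrifuge was -1.66 unscaled. The coefficient of variation of the spots was 16.8% in static flight, 4.22% in centrifuge flight and 41.6% on the ground, so the ground level was the least precise. On the ground the spot at 612 had a local background of 225, against 55 to 60 at the other ground spots. The 32 spots that touch a miR-71-5p spot had a median of 76.5, 78.0 and 69.5 on these arrays, against spike-control medians of 53, 38 and 64, and their brightest read 1326, 874 and 919. The brightest spots of the arrays read 26841, 50396 and 43527, above every spot of miR-71-5p.

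In N2, miR-71-5p was at the level of non-specific signal under each exposure. The spots read 41, 2, 0 and -2 in static flight. They read -569, 4, 5 and -21 in centrifuge flight and -5, 6, -35 and -5 on the ground. Of these 12 spots, 1 lay above the control limit of its array, the spot at 41 in static flight. The spot at -569 had a foreground of 282 and a local background of 851. The foreground medians, 77.0, 59.0 and 66.0, lay close to the foreground medians of the spike-control spots, 69.0, 59.0 and 66.0. No order of the 3 exposures can be read from the N2 arrays.

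**Figure D1:**
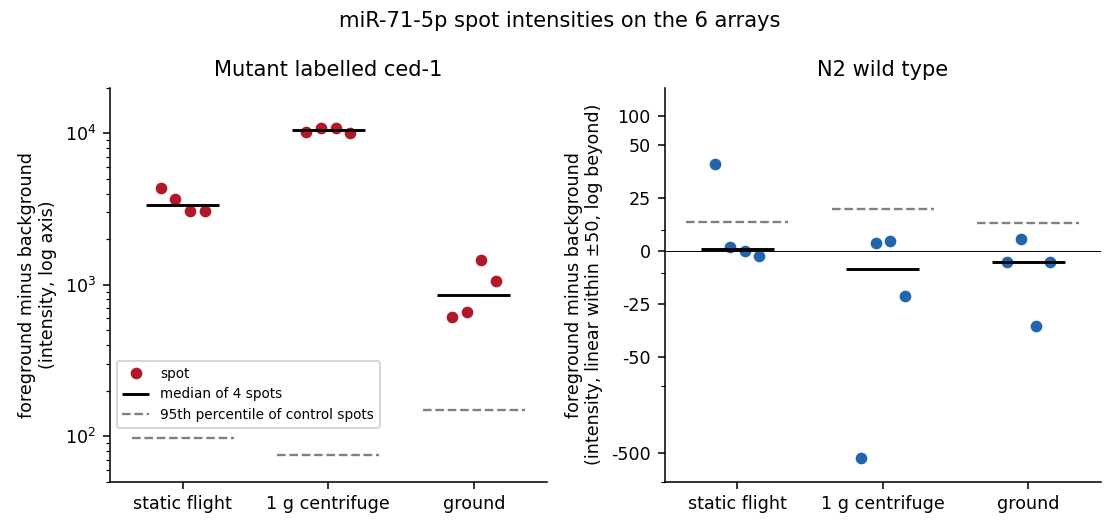
Background-subtracted intensity of the 4 spots of miR-71-5p on each array (points), with their median (solid bar) and the 95th percentile of the spike-control spots of the same array (dashed bar); the mutant axis is logarithmic, and the N2 axis is linear within ±50 and logarithmic beyond. Mutant spots run from 612 on the ground to 10921 in centrifuge flight, while N2 spots lie between -569 and 41.

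Ranked by the median of its spots, miR-71-5p was the brightest of the 154 worm probes on both mutant flight arrays and the ninth on the mutant ground array. Rank on an array reflects how well a probe binds as well as how much miRNA is present. Its median of 3387.5 in static flight stood above miR-81-3p, a bantam-type miRNA like miR-58, at 2568. In centrifuge flight its median of 10498 again stood above miR-81-3p, at 9106.5. On the mutant ground array it read 861, and 8 worm probes read higher. The brightest 5 of those were miR-81-3p at 18657.5, its relative miR-82-3p at 3822.5, the let-7 relatives miR-84-5p at 1470.5 and miR-48-5p at 1351.5, and miR-73-3p at 1286.5. The next probe above it, miR-65-5p, read 865, a gap far smaller than the spread of the 4 ground spots. Rank 1 in both flights held with the mean of the spots, with the highest or lowest spot left out, with normexp background correction and with foreground alone, and the ground rank ran from 7 to 14 over the same settings.

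On the N2 arrays its medians of 1.0, -8.5 and -5.0 gave ranks of 62, 132 and 70 in static flight, centrifuge flight and ground, all within the mass of undetected probes. The brightest N2 worm probes were miR-257 at 505 in static flight and let-7-5p, the miRNA that times the switch from larva to adult, at 479 in centrifuge flight and 367 on the ground. let-7-5p itself read 322, 1532 and 1042 on the mutant arrays, so its N2 values lay within or near its mutant range, unlike those of miR-71-5p.

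**Figure D2:**
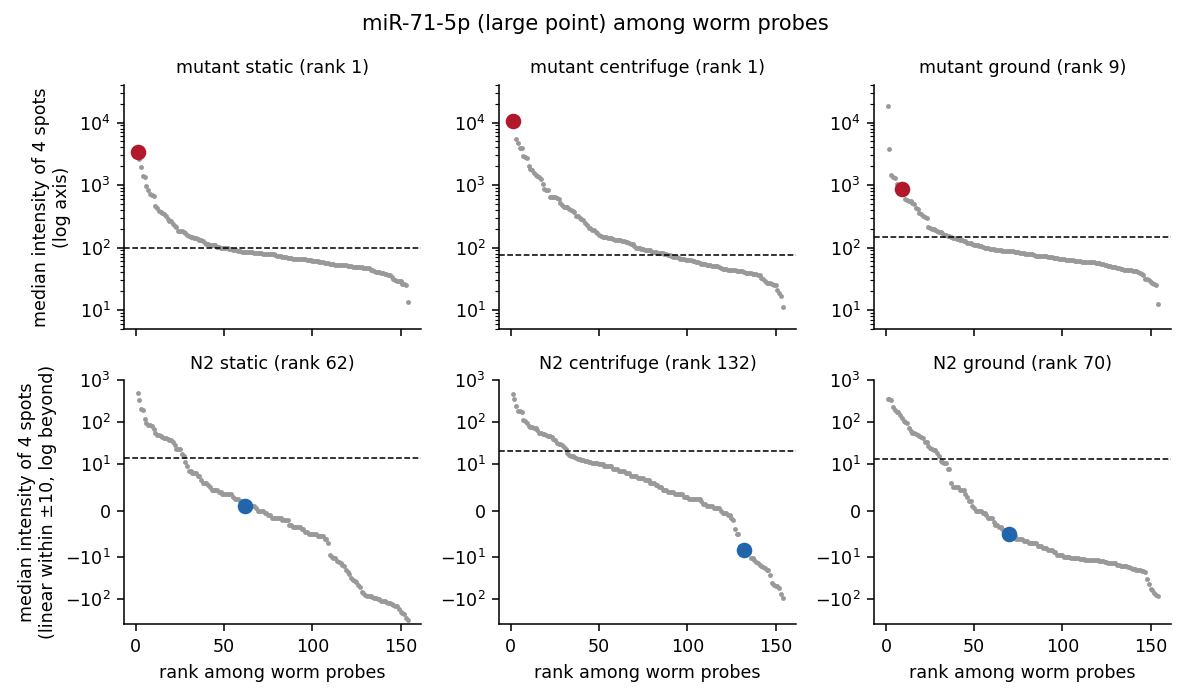
Median intensity of the 4 spots for each of 154 worm probes, sorted from brightest to dimmest on each array (small points), with miR-71-5p as the large point and the control limit as a dashed line; mutant axes are logarithmic, N2 axes linear within ±10 and logarithmic beyond. miR-71-5p ranks 1, 1 and 9 on the mutant arrays and 62, 132 and 70 on the N2 arrays.

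The comparison of flight with ground asks whether spaceflight changed the level of miR-71-5p. For it, intensity was scaled so that the median over the 8 worm probes at 50 or more on all 6 arrays was the same on each array, and values under 50 were set to 50. The mutant scale factors were 1.49 in static flight, 0.329 in centrifuge flight and 0.927 on the ground. Centrifuge readings above the control limit of 75.3 could thus still be set to 50, as was lsy-6 at 127.5 unscaled. Scaled miR-71-5p in the mutant was 5049 in static flight, 3457 in centrifuge flight and 798 on the ground. Static flight minus ground was 2.66 on the log2 scale (SE 0.32, a technical error computed over the 4 replicate spots), a 6.33-fold higher level in flight. Centrifuge flight minus ground was 2.11 (technical SE 0.30), a 4.33-fold higher level. Both flights are set against the same ground array, so they are not independent, and with 1 array per side there is no test. Of 126 miRNAs compared between static flight and ground, 34 (27.0%) were 2-fold or more above ground and 10 (7.94%) as far below, and the difference of miR-71-5p was the fourth largest upward. Of 125 compared between centrifuge flight and ground, 12 (9.60%) were 2-fold or more above ground and 25 (20%) as far below, and the difference of miR-71-5p was the second largest upward. The 25 include miRNAs set to the floor in centrifuge flight, such as lsy-6.

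The size of these differences moved with the scaling and the direction did not. Over 17 other settings of the raw and expression tables, static minus ground in the mutant ran from 1.62 to 3.38 and centrifuge minus ground from 1.34 to 3.61, and each stayed above 2-fold. Settings that changed only the floor could not move these differences, since the mutant values lay above each floor. Every setting used the same ground array. With no scaling, the static and ground medians of 3387.5 and 861 differed 3.93-fold, and the centrifuge and ground medians of 10498 and 861 differed 12.2-fold. The lowest static spot over the highest ground spot gave a ratio of 2.11, and the lowest centrifuge spot over the highest ground spot gave 6.95. The authors' deposited table lists ratios of 6.79 for mutant static over ground and 8.55 for mutant centrifuge over ground. The scale of an array cancels when miR-71-5p is placed among the other worm probes by its ratio of unscaled intensities. Among 28 worm probes above the control limit on both the mutant static and ground arrays, the log2 ratio of miR-71-5p, 1.98, ranked 3 from the top, against a median of -0.48. Only miR-257 at 3.30 and miR-58-3p at 2.13 were higher. Among 36 probes above the limit on both the mutant centrifuge and ground arrays, its log2 ratio of 3.61 ranked 2, under the probe for both miR-44-3p and miR-45-3p at 3.64 and against a median of 0.96.

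Between the flights, the order of miR-71-5p in the mutant turned with the scaling. Scaled intensity in static flight was 1.46 times that in centrifuge flight (log2 0.55, technical SE 0.12), while unscaled intensity was lower in static flight (log2 -1.63), and the static and centrifuge spots lay apart in that direction. The authors' normalized values gave -0.33. Their factor for each array equals the median over the 13 worm probes at 30 or more on all 6 arrays, on 6 of 6 arrays (tolerance 0.01). It differs from the scaling used here in admitting 5 more probes, each under 50 on an N2 array. Among 51 worm probes above the control limit on both flight arrays, the unscaled ratio of miR-71-5p ranked 25, at -1.63 against a median of -1.66. Of 126 miRNAs compared, 49 (38.9%) stood 2-fold or more toward static flight and 1 (0.794%) toward centrifuge flight, and miR-71-5p was in neither group. The 49 include miRNAs set to the floor in centrifuge flight. lsy-6 was among them, though unscaled it read 109.5 in static flight and 127.5 in centrifuge flight.

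**Figure D3:**
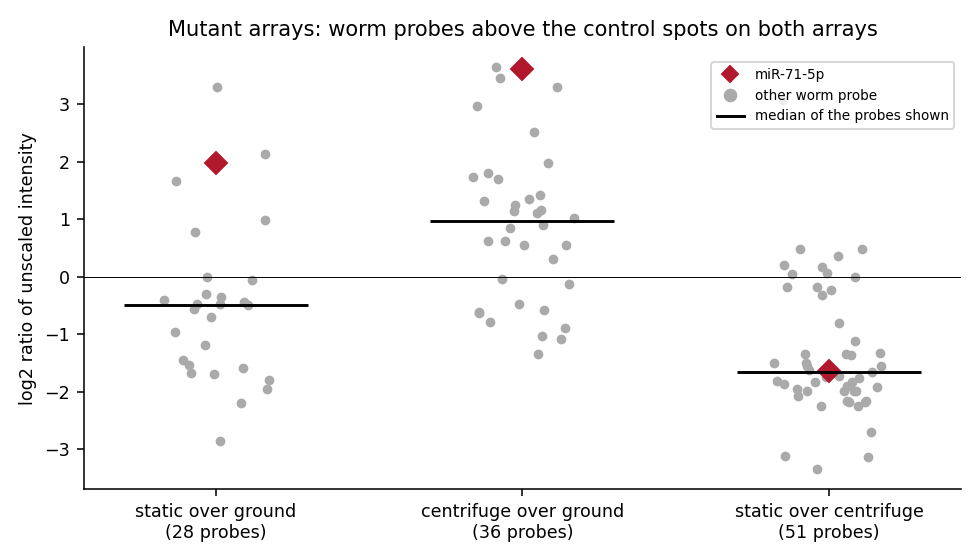
Log2 ratio of unscaled intensity between mutant arrays for the worm probes above the control limit on both arrays (grey points), with miR-71-5p as a diamond and the median of the probes shown as a bar. miR-71-5p lies at 1.98 and 3.61, ranks 3 and 2, for the flights against ground, and at -1.63, beside the median of -1.66, for static over centrifuge flight.

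**Figure D4:**
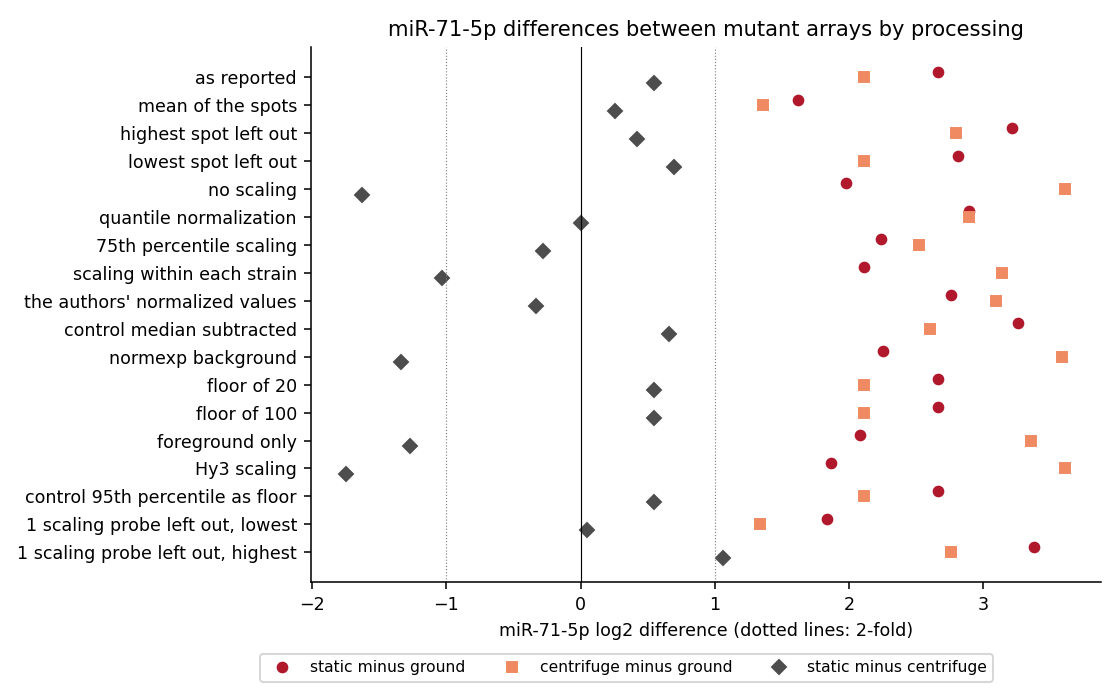
miR-71-5p log2 differences between mutant arrays (x axis) under each processing setting (rows), with dotted lines at 2-fold. Static minus ground and centrifuge minus ground stay above 1 in every row shown, while static minus centrifuge runs from -1.74 to 1.06.

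With the strains as replicates of an exposure, no exposure difference of miR-71-5p passed, and the fit could not decide the question. limma's additive model of strain and exposure over 126 worm probes had 2 residual degrees of freedom, and nothing in the labels says that arrays stem from separate cultures beyond the strain and exposure, so a p-value here covers only how far these arrays spread. Static minus ground was 1.33 (SE 0.73, adjusted p = 0.896), and 0 of 126 miRNAs (0%) passed as higher, with 3 at an unadjusted p under 0.05. Centrifuge minus ground was 1.06 (SE 0.73, adjusted p = 1.00), and 0 of 126 (0%) passed, with 1 at an unadjusted p under 0.05. Static minus centrifuge was 0.27 (SE 0.73, adjusted p = 0.903), and 0 of 126 (0%) passed, with 0 at an unadjusted p under 0.05. Each estimate averages a mutant difference with an N2 difference of 0 between values at the floor of 50, so the positive estimates stem from the mutant arrays. With N2 constant, the residuals of miR-71-5p grow in step with its mutant differences. A larger mutant difference would widen the SE too, so nothing about exposure is concluded from these p-values. Without the mutant ground array the estimates against ground fell to 0.14 for static flight and -0.14 for centrifuge flight.

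miR-71-5p had the largest strain estimate of the tested miRNAs. With every N2 value at the floor, the size of that estimate is set by its brightness on the mutant arrays alone. Against the floor of 50, where all 3 N2 values lay, scaled intensity was at least 101-fold higher in the mutant in static flight, at least 69.1-fold in centrifuge flight and at least 16-fold on the ground. These bounds hold only for that floor and scaling, and another floor would shift them. With arrays scaled to the Hy3 spots and N2 set at its control limit, these bounds were 46.5-fold, 116-fold and 15.3-fold, so the order of the flights turned. The mutant stood above N2 in 3 of 3 exposures. limma gave a difference of 5.59 (SE 0.60, adjusted p = 0.00307) with N2 at the floor, and 24 of 126 miRNAs (19%) passed with the mutant higher, and 1 passed with N2 higher. The exact two-sided permutation test of 3 mutant against 3 N2 arrays gave p = 0.1, the smallest it can give. Values at the floor have no spread, so the SE and the adjusted p of miR-71-5p rest on the mutant arrays and can be too small. miR-71-5p passed the low-value filter through its mutant arrays alone, so the difference tested also admitted it to the test; of the 25 miRNAs that passed, 18 had every N2 value at the floor.

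The direction of the strain difference held in every fit on the raw and expression tables, and the call did not. With N2 at non-specific signal and the mutant far above it, these settings could hardly turn the direction, so it is no separate support. The adjusted p was 0.0514 without the low-value filter, 0.0593 with quantile normalization, 0.0608 with normexp, 0.143 with a floor of 100 and 0.224 with scaling to the Hy3 spots. Leaving out either static array gave 5.05 (adjusted p = 0.157), and leaving out either centrifuge array gave 5.33 (adjusted p = 0.0568). The mutant arrays share 1 raw table and the N2 arrays another, and an effect of the table cannot be told apart from that of the strain. The Hy3 spots were 5.20, 4.51 and 4.25 times as bright on the mutant as on the N2 arrays in static flight, centrifuge flight and ground, and the estimate with Hy3 scaling was 5.25 (SE 0.95).

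The miRNAs nearest to miR-71-5p in profile were lower on the ground than in flight in the mutant and at the floor on each N2 array, on the scaled values. They were picked for likeness to miR-71-5p, so a shared shape follows from the choice. Likeness was the root-mean-square difference between log2 profiles, each centred on its own mean, over 125 other tested probes. Over the 3 mutant arrays the nearest was miR-58-3p, of the miR-58/bantam family, at 0.12. Its scaled intensity was 1012, 564 and 144 in static flight, centrifuge flight and ground. The probe for miR-44-3p and miR-45-3p came next at 0.16, with 1464, 1273 and 287. They were followed by miR-793 of the let-7 family (0.30), miR-66-5p (0.41) and miR-63-3p (0.41). The unscaled ground values of miR-793 and miR-63-3p, 68.5 and 74, lay under the control limit of 150. Over all 6 arrays the nearest were miR-48-5p (0.67), the miR-44-3p and miR-45-3p probe (0.79), miR-61-3p (0.87), miR-66-5p (0.97) and miR-58-3p (1.24). miR-48-5p, a let-7 relative, read 2017, 1765 and 1253 on the scaled mutant arrays, so it shared the strain gap of miR-71-5p with a smaller fall from flight to ground. Unscaled it read 1353.5 in static flight and 1351.5 on the ground, so its fall from static flight rests on the scaling. The profiles share arrays and scale factors, so likeness is a description.

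**Figure D5:**
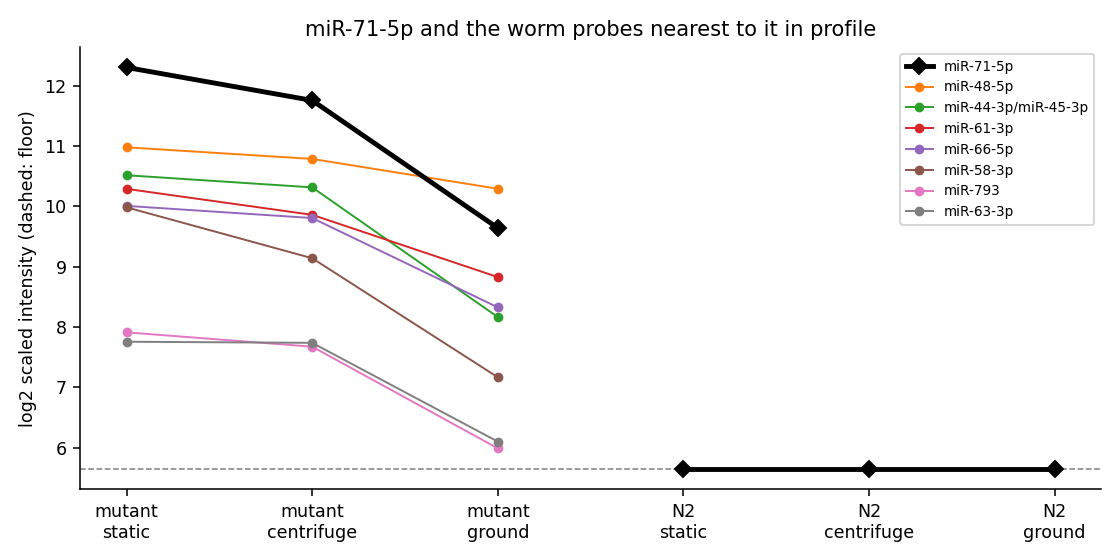
Log2 scaled intensity of miR-71-5p (black) and of the 7 worm probes nearest to it in profile on the 3 mutant and 3 N2 arrays, with the floor as a dashed line. On the mutant arrays all 8 profiles are lowest on the ground, and all 8 lie at the floor on the N2 arrays. The 7 were picked for likeness to miR-71-5p.

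Other miRNAs tied to lifespan and stress had smaller upward differences from ground in the mutant than miR-71-5p, or differed downward. The list held 7 of them (miR-238, miR-239a, miR-239b, miR-246, miR-34, lin-4 and miR-228), and 5 passed the low-value filter, so the 5 are not the whole list. For mutant static flight against ground, 2 of the 5 stood 2-fold or more above ground (miR-34-5p and lin-4-5p) and 1 as far below, with a median log2 difference of 0.49. Over all 126 miRNAs 27.0% stood above and 7.94% below, with a median of 0.55. On the mutant ground array miR-34-5p read 95 and lin-4-5p 141 unscaled, both under the control limit of 150. For centrifuge flight against ground 0 of the 5 stood above and 2 below, with a median of -0.03. The 2 below include miR-246-3p, whose centrifuge reading of 82 was set to the floor by the scaling. Over all 125 compared, 9.60% stood above and 20% below, with a median of -0.37. miR-238-3p, known to act on lifespan in the same direction as miR-71, read 102.5, 323.5 and 117 unscaled in mutant static flight, centrifuge flight and ground. Its ground reading lay under the control limit of 150, and its scaled differences from ground were 0.49 and -0.03. miR-246-3p, likewise known to promote long life, read 58, 82 and 120 and lay above the control limit on 1 of the 3 arrays. miR-239a-5p and miR-239b-5p, known to shorten life, lay under it on all 3. miR-228-5p ran against miR-71-5p, at 61.5, 203.5 and 516, with scaled differences from ground of -2.38 and -2.84, the former from a static reading under the control limit of 97.0. Between the strains 1 of the 5 passed as higher in the mutant, lin-4-5p, a timer of larval development, at 1.96 against N2 values all at the floor (adjusted p = 0.0207 in limma), and 19% of all 126 passed in that direction. Like miR-71-5p, lin-4-5p passed the low-value filter through its mutant arrays alone, so that adjusted p can be too small.

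The starvation and dauer list held 13 miRNAs besides miR-71, all of which passed the filter; it takes in the let-7 family, miR-34, miR-235 and the miR-58/bantam members miR-58, miR-80, miR-81 and miR-82. In static flight against ground in the mutant, 3 of the 13 stood 2-fold or more above ground and 3 as far below, against 27.0% and 7.94% of all, with a median of 0.21 against 0.55 over all. Of those above, miR-34-5p and miR-793 read 95 and 68.5 unscaled on the ground, under the control limit of 150. Among those below, miR-795-5p read 48.5 in static flight, under the limit of 97.0. In centrifuge flight against ground the count was 3 and 3, against 9.60% and 20% of all, with a median of -0.13 against -0.37 over 125. The 3 below include miR-235-3p, whose centrifuge reading of 93 was set to the floor by the scaling. Of the 3 above, miR-241-5p and miR-793 read 95.5 and 68.5 on the ground, under the limit of 150. Between the strains 6 of the 13 passed in limma with the mutant higher, against 19% of all 126, and 0 with N2 higher. The median estimate was 1.62 against 0.56 over all 126. Of those that passed, miR-48-5p, miR-80-3p and miR-58-3p had every N2 value at the floor. These passed the low-value filter through their mutant arrays alone, so their adjusted p can be too small. Nothing about the list is concluded from this count. Of the 7 members of the let-7 family, 1 (miR-793) stood 2-fold or more above ground and 2 (let-7-5p and miR-795-5p) below in static flight, with a median of 0.46. In centrifuge flight 2 (miR-241-5p and miR-793) stood above and 0 below, with a median of -0.06, and the shares and medians over all miRNAs are those just given. miR-2-3p, made from the gene that neighbours mir-71 in the same ppfr-1 span, read 58.5, 62.5 and 80 on the mutant arrays and 3.0, 8.5 and -10.5 on the N2 arrays. All 6 of these lay under the control limits, so miR-2-3p was not above non-specific signal on any array, while miR-71-5p was bright in the mutant.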

How the data were processed

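Per the file headers, the authors deposited 2 readings of intensity per spot, foreground alone and after local background was subtracted, with 10080 spots for 2314 probe identifiers per array. They also deposited an expression table with intensity per probe, a normalized signal and the ratio of that signal between samples. The scanner and its software are not given in the sources used here. Tables were joined on the probe identifier, with names from the newer table. The median of the 4 spots was taken, which equals the authors' deposited intensity per probe for 154 of 154 worm probes (tolerance 0.01). The 126 probes at 50 or more on at least 2 arrays entered limma (version 3.58.1, run under R 4.3.3), and Benjamini-Hochberg adjustment at 0.05 ran over all 126. The fit was tested on simulated data with the same spread for every probe and no floor. That test does not cover probes at the floor, such as miR-71-5p in N2. Within a strain, miRNAs at 50 or more on at least 1 of the arrays compared were counted at 2-fold. The alternatives covered spot summary, scaling, background, floor, filter, each array left out and the series value table; foreground alone, Hy3 scaling, the control limit as floor and leaving out each scaling probe were chosen after seeing the data. The named miRNAs are the member, list members, up to 5 probes brighter than it on a mutant array and the 5 nearest in profile; miR-65-5p and miR-257 were named after their values were seen. The member and the lists were chosen with earlier results of these data known. Correlations of profiles are not given, because the arrays fall into the strains as separate groups. No mature sequence is printed.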

Additional observations from a re-analysis of the deposited data

How the results depend on the processing

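No paired analysis was possible because each strain and exposure has 1 array and the labels give no replicate numbers; exposure is already a term of the strain model, which compares the strains within each exposure. The strain difference stayed above 0 in every fit on the raw and expression tables, which these settings could hardly change with N2 at non-specific signal. It no longer passed with quantile normalization (5.85), normexp background (4.43), a floor of 100 (4.59), Hy3 scaling (5.25) or no low-value filter (5.59), and it reversed to -1.11 in the series value table as labelled. With 1 array left out it ran from 5.05 to 6.38 and passed in 2 of 6 fits. Over both strains, no difference of miR-71-5p between exposures passed in any of these fits to all 6 arrays. With N2 at the floor, such a fit could not decide the question for miR-71-5p. Static minus ground ran from 0.14 to 2.52 with 1 array left out. Centrifuge minus ground ran from -0.14 to 2.25, with the reversal where the mutant ground array was left out. Static minus centrifuge ran from -0.53 to 1.08 with 1 array left out, and it reversed with no scaling (-0.82), 75th percentile scaling (-0.14), scaling within each strain (-0.51), the authors' normalized values (-0.17), normexp (-0.65), foreground only (-0.56), Hy3 scaling (-0.87) and the control limit as floor (-0.043).

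Within the mutant, static minus ground moved by more than the technical spread with the mean of the spots (1.62), no scaling (1.98), Hy3 scaling (1.87), 1 of the 8 scaling probes left out (1.84 to 3.38) and the series value table (6.75). Centrifuge minus ground moved with the mean of the spots (1.36), the highest spot left out (2.80), no scaling (3.61), quantile normalization (2.89), scaling within each strain (3.14), the authors' values (3.10), normexp (3.59), foreground only (3.36), Hy3 scaling (3.61), 1 scaling probe left out (1.34 to 2.76) and the series value table (0.00). Static minus centrifuge moved with the mean of the spots (0.26), no scaling (-1.63), quantile normalization (0.00), 75th percentile scaling (-0.28), scaling within each strain (-1.03), the authors' values (-0.33), normexp (-1.34), foreground only (-1.27), Hy3 scaling (-1.74), 1 scaling probe left out (0.050 to 1.06) and the series value table (6.75). In the series value table the blank mutant ground value and the mutant centrifuge value of 0.0118 were set to the floor of 50. Its 6.75 and 0.00 are therefore not differences between measured levels. The mutant ground rank moved to 14 with the mean of the spots, 7 with the highest spot left out and 8 with foreground only. The filter that asks for detection on all 6 arrays leaves miR-71-5p out, so it gave no value. The cause of these changes was not tested. The number of miRNAs higher and lower in the mutant, 24 and 1 in the limma model, was 8 and 10 with quantile normalization, 13 and 16 with 75th percentile scaling, 19 and 4 with the control level subtracted, 35 and 0 with no scaling, 83 and 0 with scaling within each strain, 37 and 2 with the lowest spot left out and 47 and 2 with a floor of 20. It was 6 and 0 with normexp, 9 and 2 with foreground only, 15 and 0 with the control limit as floor, 13 and 0 with no filter, 4 and 0 with a floor of 100, 0 and 0 with Hy3 scaling and, with 1 array left out, 0 or 10 higher. Scaling the arrays moves every value of miR-71-5p, and signal over the control spots limits what the N2 arrays can show.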

Other observations

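The largest ratio listed for miR-71-5p in the authors' deposited table is 2457, for the mutant over N2 in static flight. It divides by an N2 normalized value of 0.0118, which is a median spot intensity of 1.0 over a factor of 84.5. The spots behind that median read 41, 2, 0 and -2, so the ratio has no lower bound of its own. A bound depends on the level set for N2. It was 101-fold with the floor of 50 and 46.5-fold with Hy3 scaling and the N2 control limit. The deposited table lists no ratio for the strains in centrifuge flight or on the ground, where the N2 medians of miR-71-5p were below 0.

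Markers of stage and tissue were measured on the same whole-worm arrays. Of 8 miRNAs of the miR-35 to miR-42 family, which embryos make, 6 passed the low-value filter. For mutant static flight against ground, 1 of the 6 was at least 2-fold higher and 3 were lower, with a median of -0.39, against 27.0%, 7.94% and 0.55 over all 126. For mutant centrifuge flight against ground, 1 was higher and 2 were lower, with a median of -0.49, against 9.60%, 20% and -0.37 over all 125. The higher one was miR-39-3p in both flights, and its ground reading of 91 lay under the control limit of 150. Among those lower in static flight, miR-35-3p and miR-37-3p read 52 and 52.5 there, under the limit of 97.0. miR-1-3p, made in muscle, read 187, 474 and 140 in mutant static flight, centrifuge flight and ground and was at the floor on all 3 N2 arrays. Its strain estimate against that floor was 1.83 (adjusted p = 0.0251 in limma), and its mutant ground reading lay under the control limit of 150. miR-1-3p also passed the low-value filter through its mutant arrays alone, so that adjusted p can be too small. miR-124-3p, made in neurons, read 101, 177 and 126 on the mutant arrays and 41.5, 54.5 and 95.5 on the N2 arrays. lsy-6, made in a few neurons of the head, read 109.5, 127.5 and 135 on the mutant arrays and 11.5, 11.5 and 101 on the N2 arrays. These readings are unscaled, and the mutant arrays were brighter as a whole. On scaled values the strain estimate in limma was -0.56 for miR-124-3p (adjusted p = 0.445) and 0.29 for lsy-6 (adjusted p = 0.674). The mutant ground readings of both lay under the control limit of 150. The part of stage or tissue in the differences of miR-71-5p was not tested.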
